A study of Mus musculus with 9 samples.

Results

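The comparison of 48 h with 0 h covers the net difference in poly-A RNA between EGFP-SSCs, a mouse line of cultured spermatogonial stem cells (SSCs) that express a green fluorescent protein, and the same line after it had been driven to differentiate. It uses the 3 libraries of 48 h and the 3 libraries of 0 h out of 9 libraries in all, and every gene with enough counts, which came to 17755 of 46078 gene identifiers counted. From these genes, 985 transcription factors and 2618 genes in 66 functional groups are described, and 44 genes that commonly mark spermatogonia were kept out of the factor groups. The 24 h libraries entered the normalization and 1 alternative fit only.

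The 0 h cells were the line in its normal culture, on mouse embryonic fibroblasts stopped with mitomycin C, in StemPro-34 medium with glial cell line-derived neurotrophic factor, basic fibroblast growth factor, epidermal growth factor, estradiol, progesterone and fetal bovine serum. The 48 h cells had been mixed in equal numbers with somatic cells of testes from young busulfan-exposed mice, which lack most of their germ cells, in α-MEM with KSR, BMP-4/7, retinoic acid, activin A, testosterone, follicle-stimulating hormone and BPE, and were then sorted for EGFP. The labels name this sort for the differentiating cells. The paper states that SSCs from different culture stages were flow sorted before sequencing, without naming 0 h. Whether the 0 h cells were parted from the feeder fibroblasts in the same way could not be settled. RNA of feeder cells thus cannot be told apart from that of SSCs in genes that were high at 0 h. The groups therefore differ in time, medium, growth factors and partner cells at once, and these cannot be told apart here. All libraries come from 1 line, the labels name the replicates biological without saying what separates them, and p-values cover the spread between these samples only. In sorted bulk cells, fewer cells of a type and less RNA per cell cannot be told apart either.

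SSCs sit on the basement membrane of the seminiferous tubule, where growth factors from Sertoli and other somatic cells keep them dividing without differentiating. GDNF and FGF act through receptor tyrosine kinases and the ERK kinases, while retinoic acid and the BMP and activin ligands accompany the step into differentiation. Cultured SSCs are known to lean on glycolysis, and differentiating germ cells change their metabolism, adhesion and surface receptors along with their stage markers.

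The libraries held between 16825251 and 22201892 counts, and 0.1008% to 0.1147% of the counts of the 6 libraries compared fell on identifiers without annotation. Levels are given as CPM, the counts of a gene scaled to a fixed library total, after TMM normalization, with the SD over 3 libraries. A gene was called when edgeR's quasi-likelihood test, which is two-sided, gave a Benjamini-Hochberg adjusted p of at most 0.05 over all genes tested. Of all genes, 31.6% were called, 13% higher and 18.5% lower at 48 h, which is the background for each count below, and the median log2 fold change of all genes was 0.02. Among the 14685 protein-coding genes alone the share was larger, at 35.5%, with 2156 higher and 3063 lower. Groups of coding genes a little above 31.6% were therefore near this second share. The 5602 calls comprised 2310 genes that were higher and 3292 that were lower, so 41.2% were higher, against 52.8% when the libraries were scaled by their totals alone, which moved the median of all genes to 0.13. The count moved when any 1 library was left out. It was 3471, 3815 and 3624 without 48 h replicates 1, 2 and 3. Without 0 h replicates 1, 2 and 3 it was 7116, 4011 and 6463. The higher genes numbered 1317, 1434 and 1410 without 48 h replicates 1, 2 and 3, and the lower genes 2154 without 48 h replicate 1.

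Cell type markers were read first, since somatic cells surrounded the sorted cells. The part of somatic cells in any rise at 48 h given below was not tested, also where this is not repeated. Of 14 germ cell markers, all passed the expression filter and 12 were not called, with summed levels of 2832 to 4540 CPM at 0 h and 3739 to 4461 CPM at 48 h. Without 0 h replicate 1, 5 of the 14 were higher and 2 lower. Of 18 Sertoli cell markers, 15 passed, 11 were called higher and 2 lower, with sums of 205 to 247 CPM at 0 h and 311 to 325 CPM at 48 h. Ctsl made up most of these sums, with means of 143 and 190.5 CPM, and Trf fell from 32.2 to 0.905 CPM. The median log2 fold change of the 15 Sertoli markers was 2.72. Sums of the 9 peritubular myoid markers went from 18.3–21.7 to 278–339 CPM, with 7 of 8 tested members higher. The 8 Leydig cell markers went from 4.48–6.84 to 25.4–32.5 CPM with 3 of 3 higher, and the 17 stromal markers from 972–1136 to 4438–4808 CPM with 10 of 15 higher and 2 lower. Endothelial markers went the other way, from 100.2–123 to 39.6–44.7 CPM, with 5 of 8 lower and 2 higher, and macrophage markers went from 17.8–23.1 to 8.63–10.4 CPM, with 2 of 5 lower and 1 higher. Several markers that define these cells had few counts, beside the members that rose. Fshr and Rhox8 of Sertoli cells, Cyp17a1, Insl3, Lhcgr and Hsd17b3 of Leydig cells, and C1qa, C1qb, C1qc and Adgre1 of macrophages did not pass the filter on low counts. Of these, Rhox8 had 0 counts in each 0 h library and 2, 17 and 8 at 48 h. Insl3 had 0 counts in each 0 h library and 4, 5 and 4 at 48 h. Cyp17a1 had 2, 6 and 4 counts at 0 h and 3, 4 and 1 at 48 h.

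**Figure D1:**
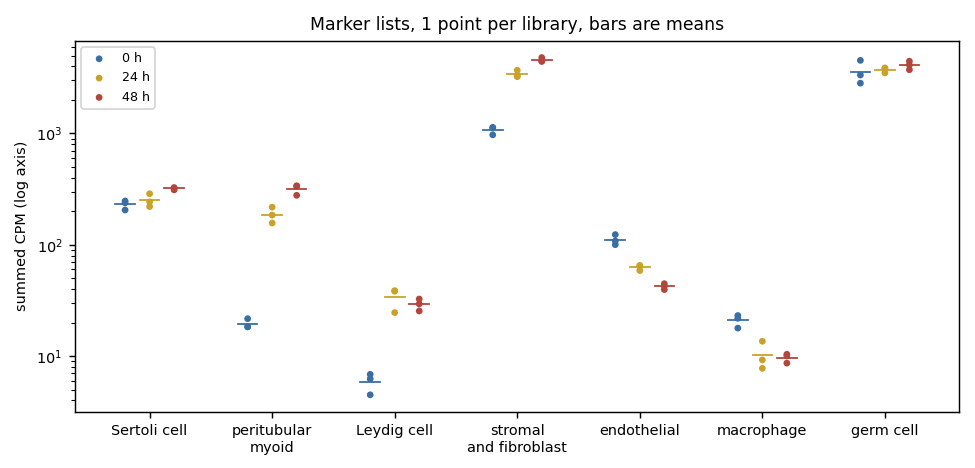
Summed CPM of 7 marker lists (y axis, logarithmic) in each library of 0 h, 24 h and 48 h; points are libraries and bars their means. The myoid sums went from 18.3–21.7 CPM at 0 h to 278–339 CPM at 48 h, while the germ cell sums of the 2 times overlap.

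Across the 66 functional groups, the shares of called members ranged widely around the background. The groups with the largest shares of lower genes were hypoxia targets, with 20 of 24 lower, keratins with 12 of 15, cholesterol synthesis with 19 of 24, glycolysis with 25 of 32, and ERK output with 21 of 31. The groups with the largest shares of higher genes were serpins, with 13 of 22 higher, collagens with 21 of 40, and smooth muscle genes with 13 of 26. Groups of the basic machinery of the cell, such as translation initiation factors and the nuclear pore, had fewer called members than the background.

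**Figure D2:**
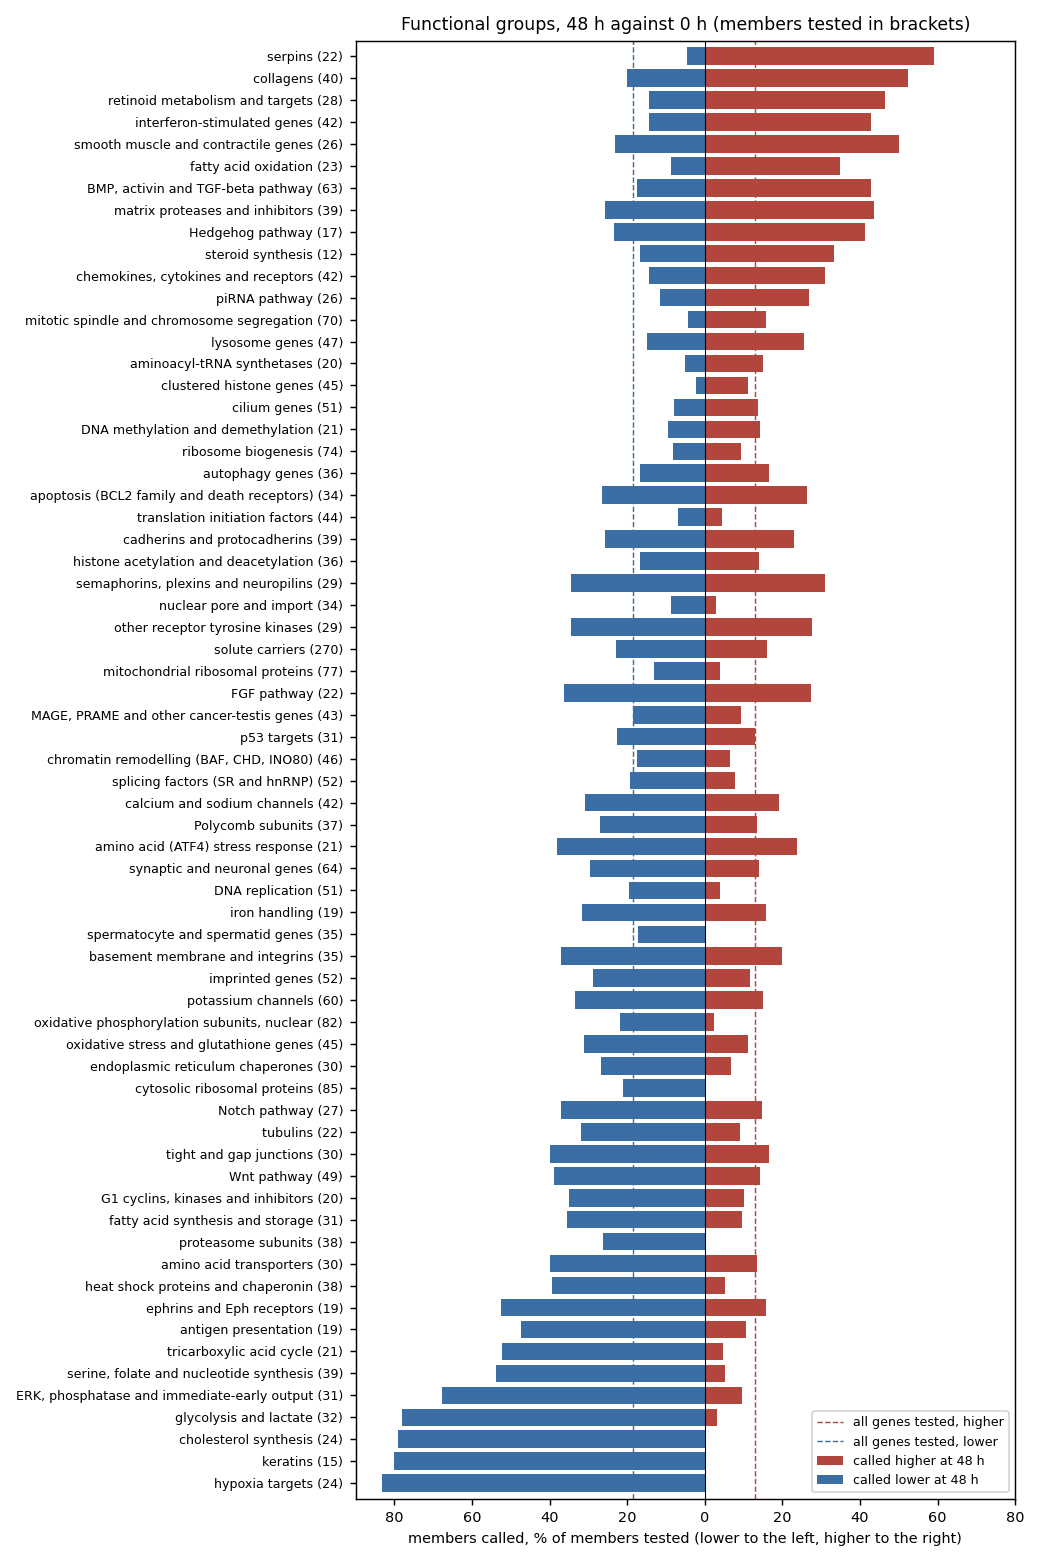
Share of the tested members of 66 functional groups called higher (right) or lower (left) at 48 h, in % of members tested; the number tested is in brackets and dashed lines give the shares of all genes, 13% higher and 18.5% lower. Glycolysis, hypoxia targets, cholesterol synthesis and keratins stand at the lower end, and serpins, collagens and the contractile genes at the upper end. The dashed lines include non-coding genes, and 35.5% of protein-coding genes were called in either direction.

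Of 985 transcription factors tested, 363 were called (36.9%, against 35.5% of protein-coding genes), 185 higher and 178 lower, with a median log2 fold change of 0.20. The large family of ZFP, ZKSCAN and ZSCAN zinc finger genes held 401 of them, with 76 called, 168 without 0 h replicate 1 and 41 to 43 without any 1 of the 48 h replicates. Among the other 584 factors, 287 were called (49.1%), 137 higher and 150 lower. Described next are the 12 factors that rose most and the 12 that fell most, of those whose mean reached 5 CPM at 0 h or 48 h.

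To show what lies upstream of these factors, 4 of their promoters are printed, as the 250 bases before the transcription start of RefSeq (GRCm38.p6), on the strand of the gene. RefSeq held a promoter for 9 of the 12 factors with the largest rises and for 9 of the 12 with the largest falls. Promoters of 250 bases before and 50 bases after the start were searched on both strands for CNCCTCAG, the motif named for STRA8, for the ETS motif CCGGAAGT, the CRE motif TGACGTCA, the E-box CACGTG and the CCAAT box, and the motifs are in capitals in the form the printed strand has, which can be the reverse complement. Of all 32851 promoters, 7.94% held the STRA8 motif, 3.89% the ETS motif, 1.79% the CRE, 7.15% the E-box and 37.4% the CCAAT box. A gene can have several promoters, and the factors below were counted when any of theirs held the motif. Of all 27025 genes, 9.12% had the STRA8 motif in this way, 4.31% the ETS motif, 2.03% the CRE, 8.09% the E-box and 41.1% the CCAAT box. No ETS motif or CRE was in these windows of the 18 factors. Id2 and Nkx1-1 are shown as the largest rises.
Id2 (chr12:25096093-25096342, minus strand): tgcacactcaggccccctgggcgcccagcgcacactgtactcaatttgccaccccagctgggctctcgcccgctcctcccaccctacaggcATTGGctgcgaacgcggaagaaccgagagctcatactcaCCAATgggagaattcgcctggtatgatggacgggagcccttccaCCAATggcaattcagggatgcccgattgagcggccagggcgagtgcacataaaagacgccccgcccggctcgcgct
Nkx1-1 (chr5:33434091-33434340, minus strand): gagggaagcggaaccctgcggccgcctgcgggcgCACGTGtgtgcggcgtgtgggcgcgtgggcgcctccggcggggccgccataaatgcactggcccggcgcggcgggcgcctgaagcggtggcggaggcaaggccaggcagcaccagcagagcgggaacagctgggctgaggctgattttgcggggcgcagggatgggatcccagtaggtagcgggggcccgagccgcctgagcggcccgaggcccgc
Zic1 and Fev are shown from among the largest falls and were not chosen by motif. The bases of Zic1 hold the E-box and those of Fev the STRA8 motif.
Zic1 (chr9:91365769-91366018, minus strand): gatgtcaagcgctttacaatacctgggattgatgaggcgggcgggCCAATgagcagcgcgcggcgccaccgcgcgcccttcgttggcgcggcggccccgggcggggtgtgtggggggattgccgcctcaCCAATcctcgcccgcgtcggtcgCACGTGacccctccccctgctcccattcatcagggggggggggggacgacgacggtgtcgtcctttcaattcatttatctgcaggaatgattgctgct
Fev (chr1:74885409-74885658, minus strand): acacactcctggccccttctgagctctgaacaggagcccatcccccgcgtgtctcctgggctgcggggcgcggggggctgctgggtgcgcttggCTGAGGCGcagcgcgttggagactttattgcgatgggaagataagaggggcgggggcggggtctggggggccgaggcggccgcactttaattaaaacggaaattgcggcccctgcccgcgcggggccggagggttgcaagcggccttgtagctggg
The CCAAT box was present in promoters of 5 of the 9 rising factors and of 7 of the 9 falling factors, among them the 3 copies in Id2 and the pair in Zic1. The STRA8 motif was in promoters of 3 falling factors, Zic1, Fev and Foxa2, and of 0 of the 9 rising factors. The E-box was in Nkx1-1, Zic1 and Egr2.

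Id2, a partner of bHLH factors that keeps them off DNA and a common target of BMP signalling, had 1.31, 0.843 and 0.398 CPM in the 0 h libraries and 56.1, 55.8 and 57.5 CPM in the 48 h libraries. The groups did not overlap, and the 48 h libraries were close to each other. Its log2 fold change of 6.08 (standard error 0.32, edgeR adjusted p = 2.28e-05) was the largest of these factors. Its relative Id1 went from 18.3 ± 2.73 to 136 ± 10.5 CPM, a log2 fold change of 2.89. Both are inhibitors without a DNA-binding domain.

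The homeobox factors Nkx1-1 and Lhx8 followed. Nkx1-1 had 0.561, 0.545 and 1.25 CPM at 0 h and 20.8, 21.1 and 19.7 CPM at 48 h, and Lhx8, a LIM-homeobox factor best known from oocytes, had 1.93, 0.744 and 0.996 CPM at 0 h and 25.4, 28.2 and 29.1 CPM at 48 h. Neither gene's groups overlapped, and each 48 h library was above each 0 h library by more than 10 CPM. The log2 fold changes were 4.68 (standard error 0.31) and 4.51 (0.32). Other rises were those of Gli2, the activator of Hedgehog signalling, from 2.18 ± 0.671 to 19.8 ± 1.13 CPM, of the T-box factor Tbx1 from 2.13 ± 0.686 to 14.2 ± 1.03 CPM, and of Vgll3, a cofactor of TEAD factors, from 0.954 ± 0.817 to 11.1 ± 1.89 CPM. Zeb2 went from 1.17 ± 1.10 to 8.70 ± 1.86 CPM, with a log2 fold change of 2.92 (standard error 0.59).

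Erg, an ETS factor, had 16.9, 16.2 and 15.7 CPM in the 0 h libraries and 107, 99.7 and 101 CPM at 48 h. The replicates of each group lay close together and the groups were far apart (log2 fold change 2.65, standard error 0.11). It is used as a marker of endothelium elsewhere. The endothelial marker sums given above went down at 48 h, with 5 of 8 members tested lower and 2 higher. The higher ones were Tek, from 1.42 to 4.10 CPM, and Tie1, from 0.21 to 0.70 CPM. The part of endothelial cells in the Erg level was not tested.

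Gata4 and Wt1, zinc finger factors of the somatic gonad and Sertoli cell markers in the lists used here, and the orphan receptor Nr2f2, known from mesenchymal cells, were also among the 12 rises. Gata4 went from 1.29 ± 0.582 to 17.1 ± 0.594 CPM, Wt1 from 2.80 ± 0.728 to 14.2 ± 0.820 CPM, and Nr2f2 from 0.394 ± 0.0824 to 6.73 ± 0.376 CPM. Tcf21, a bHLH factor and stromal marker that stayed under 5 CPM, was counted 0 times in each 0 h library and had 4.13, 3.08 and 3.64 CPM at 48 h. It was at least 22.4-fold higher at 48 h against a floor of 3 counts per library. Gata4 and Wt1 are counted in the Sertoli sum and Tcf21 in the stromal sum. The sums of Sertoli, myoid, Leydig and stromal markers rose in the same 48 h libraries. The part of such cells in these 4 results, and in the other rising factors, was not tested.

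The falls among the factors were led by Foxc2 and Zic1. Foxc2, a forkhead factor of mesenchyme and vessels, had 89.5, 111 and 147 CPM at 0 h and 1.73, 1.87 and 1.87 CPM at 48 h. Zic1, a zinc finger factor of the neural tube, had 144, 169 and 166 CPM at 0 h and 2.15, 2.61 and 2.78 CPM at 48 h. For both, every 48 h library was below 3 CPM and every 0 h library above 89 CPM. The log2 fold changes were -5.99 for each, with standard errors of 0.23 and 0.16 and edgeR adjusted p-values of 9.64e-06 and 4.17e-06.

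Zic4, which neighbours Zic1 in the genome, went from 12.8 ± 1.72 to 0.427 ± 0.415 CPM, the retinal homeobox factor Vsx1 from 15.6 ± 2.04 to 0.487 ± 0.105 CPM, and Foxa2, a forkhead factor of endoderm, from 26.9 ± 5.50 to 0.960 ± 0.145 CPM. Hlx, a homeobox factor, went from 22.2 ± 6.40 to 1.45 ± 0.670 CPM and Sp5, a target of Wnt signalling, from 63.0 ± 17.5 to 4.26 ± 0.120 CPM. Sall3, a relative of the spermatogonial factor Sall4, had 164.5, 162.5 and 163.6 CPM at 0 h and 3.61, 3.82 and 2.63 CPM at 48 h. The 0 h libraries of Sall3 agreed closely, and its log2 fold change was -5.60 (standard error 0.17). Fev, an ETS factor of serotonin neurons, went from 18.6 ± 5.41 to 0.527 ± 0.154 CPM, and Rxrg, the gamma form of the retinoid X receptor, from 13.2 ± 1.61 to 0.508 ± 0.118 CPM.

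**Figure D3:**
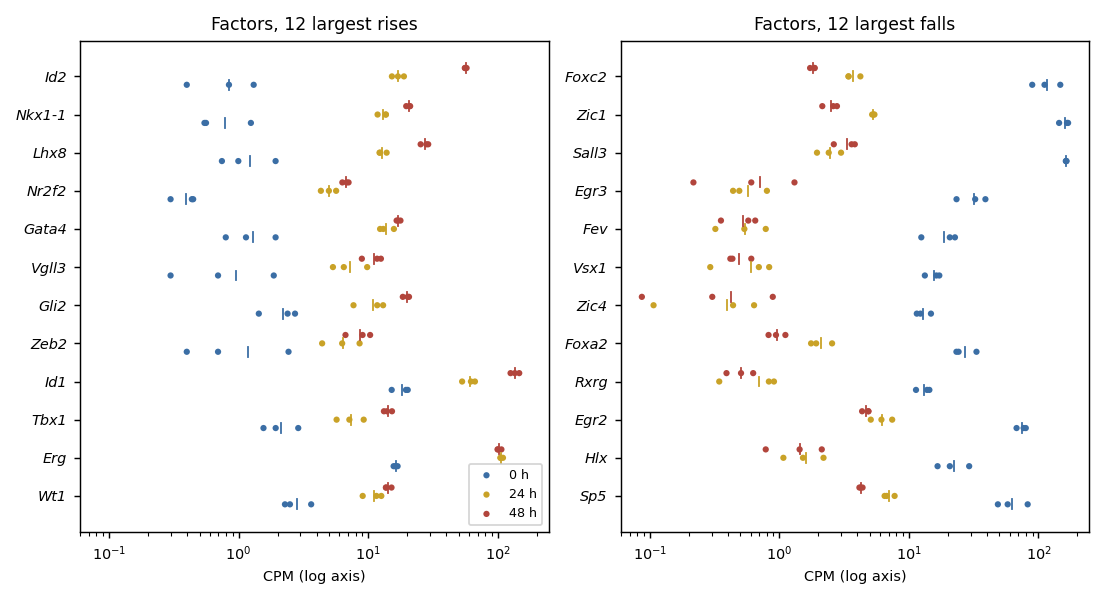
Levels of the 12 factors with the largest rises (left) and the 12 with the largest falls (right) in each library, in CPM on a logarithmic axis; points are libraries of 0 h, 24 h and 48 h and bars their means. Id2 stands at 0.398 to 1.31 CPM at 0 h and 55.8 to 57.5 CPM at 48 h, and Zic1 at 144 to 169 and 2.15 to 2.78 CPM.

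Families of factors were not alike. Of 30 forkhead factors, 14 were lower and 5 higher (3 without any 1 of the 48 h replicates), and the median was -0.26, and of 12 Sox factors 6 were lower and 1 higher, and the median was -0.51. Sox13 went from 186 to 39.0 CPM, and Sox18, a factor of vessels, from 14.3 to 2.54 CPM. T-box factors had 4 of 8 higher and 0 lower, and GATA factors 3 of 6 higher and 0 lower. Nuclear receptors split into 11 higher and 10 lower of 36. Among the lower receptors, Nr5a2 went from 36.4 to 5.40 CPM and Rora from 46.5 to 13 CPM, and among the higher ones Rarb, a direct target of retinoic acid, went from 0.0992 to 2.05 CPM. The bHLH factors split into 16 higher and 21 lower of 67, and homeobox factors outside the Hox clusters into 28 higher and 25 lower of 103. E2F and MYB factors had 0 higher and 5 lower of 13, among them E2f1 with 256 and 114 CPM. The called nuclear receptors numbered 13 without 0 h replicate 2 or any 1 of the 48 h replicates, the called E2F and MYB factors 3 without 0 h replicate 2, 48 h replicate 2 or 48 h replicate 3 and 2 without 48 h replicate 1, and the called T-box factors 2 without 48 h replicate 1. Genes named here beyond the largest changes of each list were chosen after their values were seen.

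Factors of the clock and of metabolism were among the bHLH factors that fell. Bhlhe40 went from 173 to 13.4 CPM and Bhlhe41 from 145 to 21.4 CPM, both of which are repressors that answer to hypoxia and to the clock, and Arntl, the clock activator, went from 69.9 to 18.5 CPM. Tfeb, which drives lysosome and autophagy genes, had 66.2, 78.2 and 101 CPM at 0 h and 12.45, 15.98 and 10.12 CPM at 48 h, and its log2 fold change was -2.67 (standard error 0.23). Its 2 groups did not overlap. Of the 47 lysosome genes tested, 12 were higher and 7 lower, with a median of 0.09 and 7 higher without 48 h replicate 2, and of 36 autophagy genes 6 were higher and 6 lower, or 10 higher without 0 h replicate 1, 3 and 3 without 0 h replicate 2, 3 and 2 without 48 h replicate 2, and 2 and 2 without either of the other 48 h replicates.

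Of the 5 factors with the most counts at 48 h, 4 were not called. Tcf3 had 483 ± 74.0 CPM at 0 h and 438 ± 40.9 CPM at 48 h, Nfe2l1 318 ± 75 and 360 ± 34.7 CPM, and Cic 247 ± 42.3 and 335 ± 42.3 CPM, and none of the 3 was called. Mga varied widely, with 102 to 371 CPM at 0 h and 242 to 479 CPM at 48 h, and its log2 fold change of 0.81 (standard error 0.47) was not called either. Srebf2, the factor that switches on cholesterol synthesis when sterols are low, had 839, 894 and 1157 CPM at 0 h and 366, 383 and 358 CPM at 48 h. Its groups were separated by more than 400 CPM, and its log2 fold change was -1.38 (standard error 0.14, edgeR adjusted p = 0.000431).

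Glycolysis fell nearly as a whole. Of 32 genes tested for glycolysis and the handling of lactate, 25 were lower and 1 higher, the median log2 fold change was -1.22, and the summed level at 48 h was 29.8% of that at 0 h, 3479 ± 39.6 against 11690 ± 1900 CPM. Leaving out single libraries gave 24 to 27 called genes. Pfkp, the platelet form of phosphofructokinase and a rate-limiting step, had 407, 421 and 392 CPM at 0 h and 21.6, 23.3 and 23.6 CPM at 48 h. This was the largest change of the group, with a log2 fold change of -4.16 (standard error 0.11, edgeR adjusted p = 4.05e-06). The liver form Pfkl went from 147, 180 and 232 CPM to 40.5, 40.9 and 34.0 CPM.

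The glucose transporters moved together. Slc2a1 had 394, 418 and 511 CPM at 0 h and 64.6, 65.8 and 67.0 CPM at 48 h, and Slc2a3 had 441, 484 and 549 CPM at 0 h and 63.0, 66.1 and 68.3 CPM at 48 h. In both, each 48 h library was below each 0 h library by more than 300 CPM. The steps that follow were also lower, with log2 fold changes of -1.86 for the hexokinase Hk2, -2.42 for the aldolase Aldoa, -1.35 for the phosphoglycerate kinase Pgk1, -2.03 for the lactate dehydrogenase Ldha and -2.10 for the lactate exporter Slc16a3. Pkm, the pyruvate kinase, had 1820, 2297 and 2985 CPM at 0 h and 625, 617 and 580 CPM at 48 h. Pkm shares 60.0% of its longest transcript with Gm6560 and Eno1 shares 81.01% with Eno1b, so reads of these genes could have been split between copies.

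Of the 7 members that were not lower, 3 were pyruvate dehydrogenase kinases. Pdk1, another of these kinases, which keeps pyruvate out of the mitochondria, fell from 174 to 33.4 CPM, while Pdk4 rose from 0.932 to 4.56 CPM and Pdk2 and Pdk3 were not called, with 14.8 and 107 CPM at 0 h and 15.7 and 98.0 CPM at 48 h. In the tricarboxylic acid cycle, 11 of 21 genes were lower and 1 higher, with a smaller median of -0.37. The lower genes numbered 6 without 0 h replicate 2 or 48 h replicate 2, 4 without 48 h replicate 1 and 5 without 48 h replicate 3. Idh1 went from 95.9 ± 11.4 to 50.4 ± 5.61 CPM and Fh1 from 129 ± 14.3 to 78.0 ± 3.85 CPM. The nuclear genes for oxidative phosphorylation had 18 of 82 lower and 2 higher, 24.4% called in all, with a median of -0.21. This count moved with single libraries, to 42 lower genes without 0 h replicate 1, 11 without 0 h replicate 2, and 3, 7 and 4 without 48 h replicates 1, 2 and 3.

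Targets of hypoxia formed a group with no rise. Of 24 genes tested, 20 were lower and 0 higher, and the median was -1.14. Only 5 of them are also in the glycolysis group, and of the other 19, 16 were lower, with a median of -1.02. Adm, the secreted peptide adrenomedullin, had 38.9, 45.0 and 47.4 CPM at 0 h and 2.20, 1.95 and 2.07 CPM at 48 h. Ddit4, an inhibitor of mTOR that stress switches on, had 157, 271 and 330 CPM at 0 h and 25.7, 27.8 and 20.9 CPM at 48 h. The groups did not overlap for either gene, and the 0 h libraries of Ddit4 were far apart among themselves. Their log2 fold changes were -4.40 (standard error 0.14) and -3.35 (0.29). The oxygen sensor Egln3 went from 79.0 to 20.5 CPM, the collagen hydroxylase P4ha1 from 237 to 88.9 CPM and Vegfa, the vessel growth factor, from 57.3 to 30.5 CPM.

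The factors behind this response, which are stabilised when oxygen is low, did not move alike. Epas1, the hypoxia-inducible factor 2-alpha, had 90.4, 98.2 and 80.1 CPM at 0 h and 13.7, 15.9 and 15.5 CPM at 48 h, with a log2 fold change of -2.57 (standard error 0.13). Hif1a had 99.4, 76.2 and 40.0 CPM at 0 h and 92.1, 82.0 and 104 CPM at 48 h. Its groups overlapped and it was not called, with a log2 fold change of 0.36 (0.30). Their partner Arnt, at 96.5 and 117 CPM, and Vhl, which marks them for breakdown, at 62.9 and 63.9 CPM, were not called either.

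Cholesterol synthesis was lower along its length, with 19 of 24 genes lower, 0 higher and a median of -1.26. The summed level fell to 41.6% of that at 0 h, from 3649 ± 103 to 1517 ± 27.0 CPM. Cyp51, an enzyme that acts on lanosterol, had 255.5, 237 and 268 CPM at 0 h and 58.6, 60.4 and 59.1 CPM at 48 h. The libraries of each time lay close together and the groups were far apart, and the log2 fold change was -2.09 (standard error 0.10, edgeR adjusted p = 1.71e-05). Hmgcs1, which acts early in the pathway, went from 384 ± 63.3 to 136 ± 5.02 CPM. Of the later enzymes, Msmo1 went from 111 ± 18.5 to 26.2 ± 2.85 CPM and Sqle from 199 to 73.0 CPM. The 5 members without a call included Pmvk, Ebp and Hsd17b7, with log2 fold changes of -0.55, -0.27 and -0.20.

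**Figure D4:**
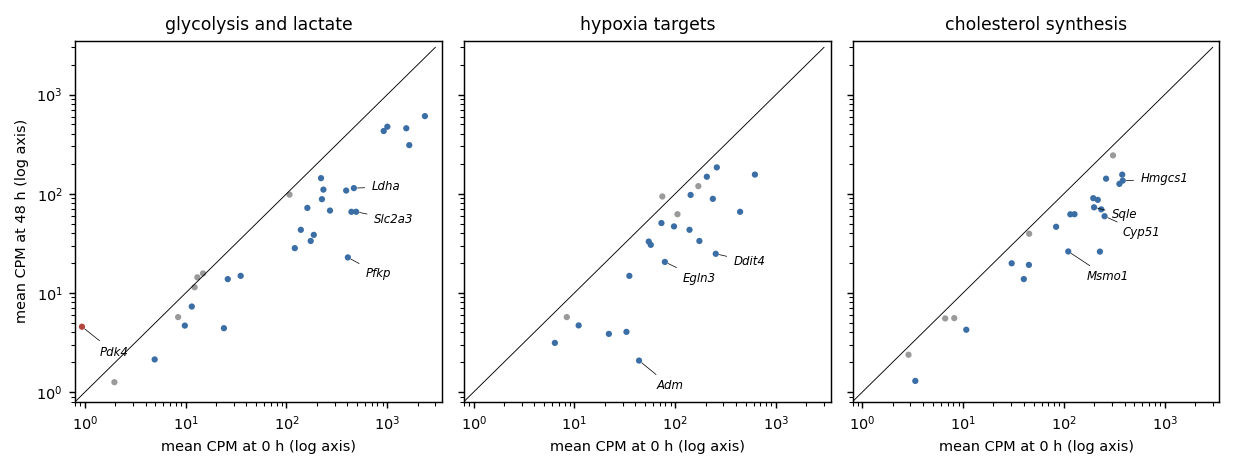
Mean CPM at 0 h (x axis) against mean CPM at 48 h (y axis), both logarithmic, for the genes of glycolysis, the hypoxia targets and cholesterol synthesis; blue points are genes called lower, red higher and grey not called, and the line marks equal levels. Pfkp lies at 407 and 22.8 CPM, Adm at 43.8 and 2.08 CPM and Cyp51 at 254 and 59.4 CPM.

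Lipid genes beyond cholesterol were lower in part. Of 31 genes for the making and storing of fatty acids, 11 were lower and 3 higher. The desaturases fell most, Scd1 from 107 ± 4.15 to 15.1 ± 0.466 CPM and Scd2 from 458 ± 20.3 to 93.4 ± 7.07 CPM, with Acacb, which makes the malonyl-CoA that blocks fatty acid oxidation, from 118 ± 5.84 to 20.3 ± 2.37 CPM. Fasn, the fatty acid synthase, had 631, 709 and 797 CPM at 0 h and 697, 778 and 726 CPM at 48 h, and its groups overlapped. Of 23 genes for fatty acid oxidation, 8 were higher and 2 lower, with Cpt1a, which lets fatty acids into mitochondria, going from 74.98 ± 4.45 to 128 ± 5.58 CPM. Leaving out 0 h replicate 2 or 48 h replicate 3 left 5 of the oxidation genes higher, 48 h replicate 1 left 3 and 48 h replicate 2 left 4. Srebf1, the factor named for fatty acid synthesis, was not called, at 212 and 165 CPM.

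Transporters of amino acids had 12 of 30 members lower and 4 higher, with 2 higher without 0 h replicate 2 or 48 h replicate 1 or 3. Slc38a1, a glutamine transporter, had 198, 188 and 186 CPM at 0 h and 20.8, 23.2 and 22.3 CPM at 48 h, and Slc38a4 went from 137 ± 8.12 to 20.6 ± 0.703 CPM. The groups did not overlap, and the log2 fold changes were -3.11 (standard error 0.11) and -2.73 (0.11). Slc7a5, the leucine transporter, was lower by less, from 864 ± 109 to 424 ± 15.1 CPM. In the group for serine, folate and nucleotide synthesis, 21 of 39 genes were lower and 2 higher, among them Mthfd1 with 146 ± 10.1 and 62.6 ± 5.61 CPM. The lower genes of that group numbered 12 without 0 h replicate 2 or 48 h replicate 2, 8 without 48 h replicate 1 and 9 without 48 h replicate 3.

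Genes of glutathione and oxidative stress went in both directions, with 14 of 45 lower and 5 higher, or 10 higher without 0 h replicate 3. Gstm2, a glutathione transferase, had 0.249, 0.595 and 0.747 CPM at 0 h and 54.1, 46.5 and 53.1 CPM at 48 h. Its log2 fold change of 6.54 (standard error 0.28, edgeR adjusted p = 1.22e-05) was among the largest of all genes with at least 10 CPM. Gsta4, which clears products of lipid oxidation, went the other way, from 95.4 ± 11.2 to 16.4 ± 1.07 CPM, as did the metallothionein Mt1, from 377 ± 59.1 to 99.3 ± 6.71 CPM, and the peroxiredoxin Prdx1, from 976 ± 27.3 to 568 ± 61.5 CPM.

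Output of ERK signalling, which GDNF and FGF feed in these cells, was lower in 21 of 31 genes and higher in 3, with a median of -1.24. Egr2 had 67.7, 76.8 and 79.8 CPM at 0 h and 4.87, 4.86 and 4.35 CPM at 48 h, and Egr3 had 23.3, 38.9 and 32.5 CPM at 0 h and 1.31, 0.217 and 0.607 CPM at 48 h. Both are immediate-early factors, and neither had a 48 h library within 20 CPM of a 0 h library. Their log2 fold changes were -3.99 (standard error 0.13) and -5.50 (0.50). Egr1 changed by less, from 162 to 46.3 CPM, and Fos, the classic immediate-early gene, went from 28.4 to 20.8 CPM. Dusp4, a phosphatase that removes phosphate from ERK in the nucleus, had 159, 168 and 206 CPM at 0 h and 8.01, 5.12 and 7.34 CPM at 48 h (log2 fold change -4.71, standard error 0.21). All 5 Spry and Spred genes tested, inhibitors of the pathway, were lower, with a median of -1.92. Dusp2, Dusp8 and Dusp16 were the 3 exceptions, with log2 fold changes of 0.91, 2.41 and 0.72.

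The receptors above ERK were lower in part. Fgfr1 had 284, 290 and 331 CPM at 0 h and 117, 130 and 120 CPM at 48 h, with no overlap (log2 fold change -1.30, standard error 0.11). Of 22 genes of the FGF pathway, 8 were lower and 6 higher. The ligands Fgf3 and Fgf9 went from 19.1 ± 4.15 to 1.70 ± 0.116 CPM and from 29.6 ± 2.36 to 2.95 ± 0.338 CPM, while Fgf7 and Fgf10, ligands known from mesenchyme, went from 0.278 to 4.58 CPM and from 0.406 to 3.28 CPM. Among other receptor tyrosine kinases, 10 of 29 were lower and 8 higher, and 5 were higher without any 1 of the 48 h replicates. The vascular growth factor receptors Flt1 and Kdr fell from 105 ± 8.42 to 8.85 ± 1.402 CPM and from 24.6 ± 1.66 to 2.41 ± 0.659 CPM, Met, the receptor of hepatocyte growth factor, rose from 11.7 ± 4.17 to 63.6 ± 5.35 CPM, and Pdgfrb rose from 5.22 ± 0.760 to 24.3 ± 0.919 CPM. Kdr is one of the endothelial markers and Pdgfrb one of the stromal markers, and the part of such cells in these values was not tested.

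Eph receptors and ephrins, which signal where cells touch, had 10 of 19 members lower and 3 higher. Of the 11 receptors, 5 were lower and 3 higher, and of the 8 ephrins 5 were lower and 0 higher. Epha2 had 347, 392 and 465 CPM at 0 h and 18.4, 16.9 and 15.3 CPM at 48 h, and Ephb1 had 72.8, 73.2 and 83.9 CPM at 0 h and 5.81, 6.77 and 7.84 CPM at 48 h. The libraries of each time stood together and the times were far apart. Their log2 fold changes were -4.57 (standard error 0.16, edgeR adjusted p = 6.39e-06) and -3.49 (0.15). Epha8 went the other way, from 24.4 to 59.8 CPM, and Ephb4 was not called, with 76.5 ± 11.8 and 72.0 ± 4.19 CPM.

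The Wnt and Notch pathways were lower in more genes than they were higher. For Wnt, 19 of 49 genes were lower and 7 higher, and 4 were higher without any 1 of the 48 h replicates. The receptor Fzd2 went from 133 ± 39.5 to 20.9 ± 2.83 CPM, the enhancer of Wnt signalling Rspo2 from 56.5 ± 2.06 to 9.77 ± 1.32 CPM, and the secreted inhibitor Wif1 from 11.4 ± 1.10 to 0.661 ± 0.243 CPM. For Notch, 10 of 27 genes were lower and 4 higher. Notch1 had 201, 223 and 243 CPM at 0 h and 35.3, 37.0 and 31.9 CPM at 48 h, and Lfng, which modifies Notch receptors, went from 33.6 ± 7.89 to 6.90 ± 0.502 CPM. The ligand Dll1 rose, from 0.498, 0.347 and 0.647 CPM to 8.89, 11.4 and 10.3 CPM. Receptor and ligand thus moved in opposite directions, where the log2 fold changes were -2.68 (standard error 0.12) for Notch1 and 4.34 (0.28) for Dll1, and 20.5% of the exon bases of Dll1 overlap with A930024N18Rik. Whether somatic cells had a part in the Dll1 level was not tested.

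In the Hedgehog pathway, 7 of 17 genes were higher and 4 lower, or 4 and 4 without 48 h replicate 2. Beside Gli2, the ligand Dhh, a Sertoli cell marker, was higher, with 0.0538 and 2.60 CPM, and Smo, the transducer, went from 64.9 to 110 CPM. The targets that report pathway activity were lower, with Gli1 at 7.26 and 2.12 CPM and Ptch1 at 62.1 ± 4.38 and 36.4 ± 2.67 CPM.

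The BMP, activin and TGF-beta pathway had 27 of 63 genes higher and 11 lower, with a median of 0.38. Of 22 ligands, 8 were higher and 6 lower. Inhba, which forms activin A, had 0.436, 0.248 and 0 CPM at 0 h and 15.0, 8.99 and 11.2 CPM at 48 h, and Inha, the inhibin subunit, had 0.934, 0.843 and 0.548 CPM at 0 h and 23.1, 21.6 and 19.6 CPM at 48 h. Both were below 1 CPM in each 0 h library and above 8 CPM in each 48 h library, and both are known from Sertoli cells, whose marker sums rose in the same libraries. Inhbb, a related subunit and a Sertoli marker in the lists used here, was lower, from 28.8 to 8.85 CPM. The part of Sertoli cells in these levels was not tested. Tgfb1 went down, from 97.4 to 13.9 CPM, while Tgfb2 and Tgfb3 went up, from 0.812 to 5.09 CPM and from 0.867 to 9.15 CPM. Bmp4 went from 12.1 to 2.15 CPM and Bmp7 from 51.6 to 27.6 CPM, 2 ligands that were also added to the medium as protein.

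Receptors of this pathway were called least, with 2 of 12 higher and 2 lower. Of 12 Smad, Smurf and Ski genes, 5 were higher and 1 lower, and among them Smad9, a transducer of BMP, from 2.23 to 10.7 CPM, and Smad1 from 38.8 to 53.2 CPM. Antagonists and binding proteins had 9 of 14 higher and 2 lower, with a median of 1.16. Ltbp2, which binds to matrix fibres, had 15.1, 13.9 and 11.5 CPM at 0 h and 140, 132 and 144 CPM at 48 h (log2 fold change 3.36, standard error 0.14), and Grem1, a BMP antagonist, went from 2.65 to 15.5 CPM. Chrd, another antagonist, was lower, with 15.6 and 1.99 CPM. Id3 rose from 64.6 to 127 CPM, less than Id1 and Id2 above.

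Genes that make, break down or answer to retinoic acid, which was in the medium at 48 h, had 13 of 28 higher and 4 lower, with a median of 0.75. With at least 10 counts asked of every library, 7 were higher and 3 lower. The enzymes that make retinoic acid did not move alike. Aldh1a1 had 0.685, 0.942 and 0.797 CPM at 0 h and 39.0, 30.1 and 33.5 CPM at 48 h, Aldh1a3 had 25.3, 30.4 and 31.6 CPM at 0 h and 2.04, 2.00 and 1.37 CPM at 48 h, and Aldh1a2 was not called, at 30.3 and 31.2 CPM. Aldh1a1 and Aldh1a3 thus went in opposite directions, where the log2 fold changes were 5.38 (standard error 0.19) and -4.01 (0.20). Whether somatic cells had a part in the Aldh1a1 level was not tested. The enzymes that break it down were all higher, with Cyp26a1 at 2.13 and 14.1 CPM, Cyp26b1 at 1.95 ± 0.492 and 18.1 ± 2.51 CPM and Cyp26c1 at 0.804 and 2.67 CPM. Tgm2, a retinoid-induced transglutaminase, went from 2.76 ± 0.547 to 22.4 ± 2.09 CPM, and Stra6, the receptor that takes up retinol, from 0.158 to 2.60 CPM.

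Genes that interferon switches on were more often higher, with 18 of 42 higher and 6 lower and a median of 0.60. Leaving out single libraries gave 13 to 19 higher genes. Oasl2 had 8.22, 9.32 and 8.41 CPM at 0 h and 37.1, 36.2 and 41.4 CPM at 48 h, and Isg15, a ubiquitin-like modifier, had 1.18, 1.98 and 1.34 CPM at 0 h and 11.5, 9.47 and 8.85 CPM at 48 h. The groups did not overlap (log2 fold changes 2.14, standard error 0.12, and 2.71, standard error 0.25). The factors Irf7 and Irf9 were higher at 10.4 and 24.0 CPM, against 5.37 and 15.7 CPM, while Stat2 was not called. Levels were low for most members, and Ifit1 and Ifit3 reached 7.12 and 2.97 CPM at 48 h. Ifitm1, a germ cell surface member of the list, fell from 13.1 ± 1.19 to 1.44 ± 0.303 CPM.

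Genes that present antigen did not follow the interferon genes. Of 19 tested, 9 were lower and 2 higher, and the median was -0.61. H2-DMa, of the class II pathway, went from 16.3 ± 2.52 to 4.67 ± 0.602 CPM and H2-Ab1 from 5.59 to 0.572 CPM. Psmb9, a subunit of the immunoproteasome, went from 16.6 ± 2.89 to 4.26 ± 1.46 CPM. The count was 6 lower and 0 higher without 48 h replicate 1. Chemokines and cytokines with their receptors had 13 of 42 higher and 6 lower, or 3 lower without 48 h replicate 2. Cxcl12 went from 1.89 ± 0.378 to 24.7 ± 2.28 CPM, and Cxcr4, its receptor, from 41.3 ± 3.10 to 5.11 ± 0.310 CPM, so ligand and receptor went in opposite directions. Whether somatic cells had a part in the Cxcl12 level was not tested.

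Keratins, the intermediate filaments of epithelia, had 12 of 15 members lower and 0 higher, with a median of -2.51. With at least 10 counts asked of every library, 7 were lower. Krt19 had 44.3, 51.3 and 60.8 CPM at 0 h and 0.785, 0.651 and 0.860 CPM at 48 h, and Krt18 had 8.16, 10.1 and 14.1 CPM at 0 h and 1.47, 1.30 and 0.911 CPM at 48 h. Krt19 was below 1 CPM in each 48 h library, with a log2 fold change of -6.08 (standard error 0.20). Most other keratins were below 5 CPM at both times. Esrp1, the splicing regulator of epithelial cells, had 222, 191 and 189 CPM at 0 h and 24.4, 20.2 and 21.4 CPM at 48 h, the placental cadherin Cdh3 went from 130 ± 20.8 to 16.4 ± 0.890 CPM, and the tight junction protein Ocln from 78.8 ± 1.38 to 23.7 ± 1.5 CPM. Of 30 genes of tight and gap junctions, 12 were lower and 5 higher, or 8 and 3 without 48 h replicate 1 or 3, and Jam2, a junctional adhesion molecule, rose from 0.709 ± 0.0310 to 14.4 ± 1.78 CPM.

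Genes of the basement membrane on which SSCs sit were grouped with integrins, cell surface receptors. Of 35 genes in this group, 13 were lower and 7 higher, with 8 lower without 48 h replicate 1 or 3. Nid1 and Nid2, the nidogens that link laminin to collagen IV, went from 349 ± 33.6 to 70.6 ± 5.21 CPM and from 735 ± 44.3 to 159 ± 10.1 CPM. Itga6, a laminin receptor used to sort SSCs, went from 184 to 58.1 CPM. The type IV collagens that nidogens bind, taken from the collagen group, went up in 5 of 6 genes. Col4a1 had 52.1, 51.1 and 58.8 CPM at 0 h and 331, 310 and 278 CPM at 48 h. Nid1 and Col4a1 thus differed in sign, where the log2 fold changes were -2.31 (standard error 0.12) for Nid1 and 2.50 (0.12) for Col4a1. Myoid and stromal marker sums rose in the same libraries, and the part of such cells in the Col4a1 level was not tested.

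Collagens had 21 of 40 genes higher and 8 lower, with a median of 0.79 and a summed level of 1371 ± 152 CPM at 0 h and 4757 ± 275 CPM at 48 h. Fibril-forming collagens had 6 of 11 higher and 0 lower. Col1a1 had 162, 128 and 181 CPM at 0 h and 1490, 1414 and 1302 CPM at 48 h, and Col5a2 had 11.96, 13.7 and 15.7 CPM at 0 h and 213, 190 and 192 CPM at 48 h. No 48 h library was near a 0 h library in either gene. None of the 8 members that fell was a fibril-forming collagen. Col13a1, a collagen that spans the membrane, went from 132 ± 39.9 to 5.44 ± 0.932 CPM, Col18a1 from 154 to 43.6 CPM and Col6a6 from 12.01 ± 1.01 to 0.807 ± 0.270 CPM. Matrix proteases and their inhibitors had 17 of 39 higher and 10 lower, with the gelatinase Mmp2 at 21.5 ± 2.29 and 112 ± 6.20 CPM, and Mmp9, the other gelatinase, at 53.8 and 11.03 CPM.

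Contractile genes of smooth muscle had 13 of 26 higher and 6 lower, with a median of 0.75. Acta2, smooth muscle actin, had 1.87, 1.49 and 2.59 CPM at 0 h and 172, 144 and 187 CPM at 48 h, and its log2 fold change was 6.39 (standard error 0.24), and Actg2, with no more than 3 counts per library at 0 h, was at 48 h at least 66.2-fold higher. Tagln, of which 62.4% of the exon bases overlap with Gm48529, went from 5.04 ± 0.832 to 90.5 ± 11.3 CPM. Flna, a filamin of all cells, was not called, at 379 ± 26.9 and 400 ± 12.7 CPM. Acta2, Actg2 and Tagln are 3 of the 9 myoid markers, and Col1a1, Col1a2 and Col3a1 belong to the stromal markers. The sums of both marker lists rose in the same libraries, but they count these genes and are no separate measure of them. At 48 h, Acta2 had 168 of a mean of 317 CPM for the myoid markers, and Col1a1 1402 of 4578 CPM for the stromal markers. The part of myoid and stromal cells in the collagen and contractile results was not tested.

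Serpins, inhibitors of proteases, had 13 of 22 genes higher and 1 lower, and 9 of them were called without 48 h replicate 1. Serpina3a was counted 0 times in each 0 h library and had 8.06, 8.60 and 9.01 CPM at 48 h, at least 52.9-fold higher. Serpinf1 went from 13.4 ± 1.08 to 60.9 ± 6.86 CPM and Serpine2 from 56.6 ± 6.94 to 144 ± 9.38 CPM. Genes of steroid synthesis went in both directions. Cyp11a1, the first enzyme of the pathway and a Leydig cell marker, went from 0.493 ± 0.223 to 14.6 ± 3.19 CPM, and Hsd3b1, counted 0 times at 0 h, was at 48 h at least 32.4-fold higher, while Hsd17b12, which also lengthens fatty acids, fell from 203 ± 19.8 to 55.1 ± 3.97 CPM. The Leydig marker sum, which counts both Cyp11a1 and Hsd3b1, stayed at or below 32.5 CPM. The part of Leydig cells in these values was not tested.

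Hox factors, which pattern the body axis and are kept silent in most germ cells, had 15 of 23 members higher and 1 lower, with a median of 1.77, although 21 of the 23 had a mean of at most 5 CPM at both times. Genes of all 4 clusters were among them, with 4 of 6 in Hoxa, 5 of 7 in Hoxb, 3 of 7 in Hoxc and 3 of 3 in Hoxd. Hoxc8 had 0.125, 0.446 and 0.149 CPM at 0 h and 3.98, 3.04 and 3.54 CPM at 48 h, and Hoxd8 had 1.68, 1.09 and 1.54 CPM at 0 h and 4.03, 4.69 and 4.20 CPM at 48 h. Neither gene's groups overlapped. Hoxc13 fell, with 8.47, 9.07 and 9.06 CPM at 0 h and 1.99, 1.74 and 1.47 CPM at 48 h (log2 fold change -2.35, standard error 0.19). With at least 10 counts asked of every library, 3 were higher and 1 lower. The sums of Sertoli, myoid, Leydig and stromal markers rose in the same libraries, and their part in the Hox levels was not tested.

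**Figure D5:**
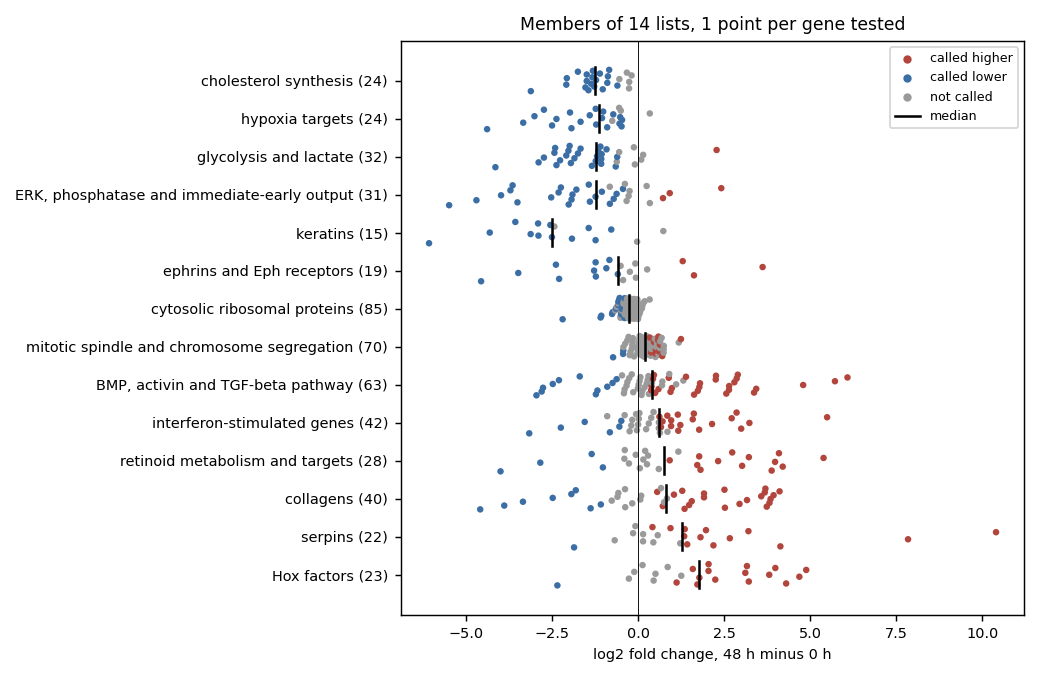
Log2 fold change at 48 h against 0 h (x axis) of each tested gene in 14 lists; red points were called higher, blue lower and grey not called, black bars are medians, and brackets give the genes tested. The median is -1.26 for cholesterol synthesis and 1.77 for Hox factors, most ribosomal proteins lie slightly below 0, and the far points of the serpins are fitted values of genes with 0 counts at 0 h.

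Groups that every dividing cell needs were close to the background or under it. Of 85 cytosolic ribosomal proteins, 18 were lower and 0 higher (21.2%), and the lower genes numbered 51 without 0 h replicate 1, 9 without 0 h replicate 2, and 4, 6 and 7 without 48 h replicates 1, 2 and 3. Of 44 translation initiation factors, 5 were called, of 34 nuclear pore and import genes 4, and of 74 ribosome biogenesis genes 13. Polr1a, the large subunit of RNA polymerase I, was among the latter and rose from 79.3, 76.6 and 74.6 CPM to 160.5, 169 and 171 CPM. DNA replication had 12 of 51 called and mitotic genes 14 of 70, of which 11 were higher. The higher mitotic genes numbered 24 without 0 h replicate 1, 2 without 0 h replicate 2, and 3, 4 and 2 without 48 h replicates 1, 2 and 3. The called genes for ribosome biogenesis ranged from 4 without 48 h replicate 1 to 26 without 0 h replicate 1, those for initiation from 2 without 48 h replicate 1 to 11 without 0 h replicate 3, those of the nuclear pore from 0 without 48 h replicate 1 to 7 without 0 h replicate 1, and those for DNA replication from 4 without 48 h replicate 1 to 17 without 0 h replicate 1. Regulators of G1 were called more often, with 7 of 20 lower and 2 higher (4 without 0 h replicate 1). Ccnd1 went from 186 ± 21.1 to 37.2 ± 1.22 CPM and Cdk4 from 297 ± 42.1 to 104 ± 6.62 CPM, while Cdk6, which binds the same cyclins, went up from 34.1 ± 5.74 to 86.8 ± 0.816 CPM.

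Chromatin genes differed in how often they were called, from 6 of 45 clustered histone genes (13.3%) to 15 of 37 Polycomb subunits (40.5%). The called histone genes numbered 2 without 0 h replicate 2 or any 1 of the 48 h replicates. Of 36 histone acetylation genes, 5 were higher and 6 lower, and of 46 remodelling subunits 3 were higher and 8 lower, or 9 and 8 without 0 h replicate 3. The called acetylation genes numbered 18 without 0 h replicate 1 and 7 without 0 h replicate 2 or any 1 of the 48 h replicates. Hdac7, a class IIa deacetylase, had 201, 252 and 274 CPM at 0 h and 19.04, 23.5 and 19.7 CPM at 48 h, and its log2 fold change was -3.54 (standard error 0.17). Chd4, the motor of the NuRD complex, went from 1317 ± 124 to 724 ± 13.2 CPM. Of 37 Polycomb subunits, 10 were lower and 5 higher, with 8 or 9 called without 0 h replicate 2 or any 1 of the 48 h replicates, and Phf19, which guides Polycomb to chromatin, had 19.6, 24.4 and 28.3 CPM at 0 h and 1.57, 1.48 and 0.911 CPM at 48 h. The groups of neither Hdac7 nor Phf19 overlapped. Tet3, which oxidises methylated cytosine, rose from 69.3, 80.4 and 63.6 CPM to 334, 348 and 286 CPM, a log2 fold change of 2.18 (0.14), while Uhrf1, which guides maintenance methylation, fell from 1023 ± 105 to 448 ± 43.2 CPM and Dnmt1 was not called, at 870 ± 109.9 and 822 ± 58.5 CPM. Uhrf1 shares 42.55% of its transcript with Gm5648.

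Genes of excitable cells were expressed in the 0 h cells and many fell. Of 60 potassium channels, 20 were lower and 9 higher. Kcnc2 had 44.9, 35.5 and 28.8 CPM at 0 h and 0.837, 0.478 and 0.354 CPM at 48 h, and its log2 fold change was -6.03 (standard error 0.32), and Kcna1 went from 25.8 ± 5.92 to 1.36 ± 0.217 CPM. Each 48 h library of Kcnc2 was below 1 CPM. Among calcium and sodium channels, 13 of 42 were lower and 8 higher, and 5 were higher without 0 h replicate 2 or any 1 of the 48 h replicates. Neuronal genes had 19 of 64 lower and 9 higher, with the neurofilament Nefm at 204 ± 56.9 and 7.73 ± 0.634 CPM and Sez6 at 211 ± 32.0 and 12.4 ± 0.933 CPM. Imprinted genes had 15 of 52 lower and 6 higher. Mest, which shares 32.7% of its transcript with Copg2, went from 37.2 ± 5.02 to 6.76 ± 0.492 CPM, H19 from 238 to 76.0 CPM and its neighbour Igf2 from 98.7 to 27.9 CPM, while Dlk1 went up from 49.1 to 123 CPM.

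Among all genes with at least 10 CPM in 1 group, the largest rises beside those above were those of Prss35, a serine protease, Fmod, a matrix proteoglycan, and Ptn, a secreted growth factor. Fmod went from 0.245 ± 0.173 to 11.6 ± 0.598 CPM and Ptn from 0.382 ± 0.104 to 14.7 ± 1.58 CPM. The largest falls included Tmc8, which had 72.2, 89.2 and 96.0 CPM at 0 h and 0.576, 0.564 and 0.961 CPM at 48 h, and Mpzl2, an adhesion molecule of epithelia, which had 246, 214 and 195 CPM at 0 h and 3.19, 2.08 and 2.93 CPM at 48 h. No 48 h library of either gene reached 4 CPM. The log2 fold changes were -6.93 (standard error 0.24, edgeR adjusted p = 6.39e-06) and -6.33 (0.21, 5.70e-06), and 30.7% of the exon bases of Mpzl2 overlap with Gm48840. The peptide transporter Slc15a1, the vessel gene Plvap and the Wnt inhibitor Sost were also among the 10 largest falls. Plvap, known from endothelium, went from 59.5 ± 16.2 to 0.874 ± 0.224 CPM. The endothelial marker sums also went down, and the part of endothelial cells in the Plvap level was not tested. In all, 82 genes with at most 3 counts in each 0 h library were called higher, and 57 genes with at most 3 counts in each 48 h library were called lower.

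Calls were spread over the genome. Between 27.4% of the genes tested on chromosome X and 35.6% on chromosome 10 were called, with 3.23% of 31 on chromosome Y and 7.41% of 27 in the mitochondrial genome. Protein-coding genes were called in 35.5% of cases, long intergenic RNAs in 21.8% and processed pseudogenes in 8.17%. Calls moved with base composition. In the fifth of genes with the lowest GC content, 345 were higher and 252 lower, with a median log2 fold change of 0.17, and in the fifth with the highest GC content 479 were higher and 890 lower, with a median of -0.09. The counts-weighted GC content of the 0 h libraries was 48.7%, 49.7% and 50.4% and that of the 48 h libraries 49.3%, 49.8% and 48.9%, so the libraries of a time differed among themselves in this respect. With offsets for GC content and length in the fit, 7643 genes were called, 3763 of them higher.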

How the data were processed

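Poly-A RNA of the EGFP-SSC line was sequenced in 3 libraries each at 0 h, 24 h and 48 h of induced differentiation. The authors deposited raw read counts per Ensembl gene for each library; fastp, HISAT2, featureCounts and GRCm38 are named in the submitters' processing notes without versions, and the strand setting of the counting is not given in the sources used here. Identifiers absent from the reference annotation stayed in the table.

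The 6 libraries of 0 h and 48 h were fitted with edgeR 4.0.16 (R 4.3.3) and its quasi-likelihood test, after filterByExpr and TMM normalization, with Benjamini-Hochberg adjustment and a threshold of 0.05. CPM were TMM-normalized over 9 libraries. Summaries and figures used Python 3.11.15 and matplotlib 3.10.9. The scripts were tested on simulated data. Folds against a group with at most 3 counts in each library are bounds against a floor of 3 counts per library, which covers counting error only. Sequence shared with other genes was found with BLAST 2.17.0 as windows of 75 bases at 97% identity.

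The gene groups and the members named were chosen with earlier results of these data known. Named were the 12 largest rises and falls among factors with at least 5 CPM in 1 group, the 5 factors with the most counts at 48 h, up to 4 called members of each group with at least 10 CPM and its member with the most counts, the 10 largest rises and falls of all genes, the genes with the highest level among those at most 3 counts in 1 group, and marker genes. Other genes were chosen after their values were seen. Some genes are not reported here.

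Alternatives were DESeq2 1.42.0, median-of-ratios factors, library size alone, no filter on low counts, a minimum of 10 counts per library, a joint fit of the 9 libraries, a replicate block, offsets for GC content and length, and leaving out each library. No pair of replicates was alike within counting noise, so none was taken for 1 library deposited again.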

Additional observations from a re-analysis of the deposited data

How the results depend on the processing

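Other tools, scalings and filters, the joint fit of 9 libraries and the offsets gave 4920 to 7643 called genes against 5602, and the higher genes numbered 3763 with offsets for GC content and length, against 2310. Leaving out 1 library gave 3471 (without 48 h replicate 1) to 7116 (without 0 h replicate 1) called genes, 1317 to 3232 higher and 2154 to 3884 lower. Without 48 h replicates 1, 2 and 3, 1317, 1434 and 1410 genes were higher. Without 48 h replicate 3, 3624 were called. The cause was not tested. No gene chosen by the naming rule was called in the opposite direction under any of the 15 alternatives. Of 328 called genes among those chosen by the naming rule, 276 kept their call in every one of the 15 alternatives that tested them and 303 in every one that keeps the 6 libraries (289 were tested with a minimum of 10 counts), and 70 of 94 lists kept the sign of their median. Deviations of libraries with the same replicate number correlated at 0.0978, 0.1993 and -0.2947 and the 0 h replicate 1 correlated best with 48 h replicate 3 (0.4035). These values cannot show whether equal numbers shared a culture or day, since the libraries also differed in GC content. The labels do not say so either, and the main fit took no pairs. With a replicate block, 4013 genes were called, 1595 higher and 2418 lower, and 6841 with the block and the offsets together. Members under 5 CPM, such as most Hox genes, rest on few counts.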
